A study of Arabidopsis thaliana with 27 samples.

Results

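The step from 100 to 125 mM NaCl was taken as the 3 arrays titled 125 mM NaCl against the 3 arrays titled 100 mM NaCl, which are 6 of the 27 arrays of the series, and all 21509 genes tested were compared. Wild-type Arabidopsis thaliana of the accession Col-0 was germinated and grown for 2 weeks on petri dishes of ATS medium, a defined nutrient agar, so every array holds total RNA of whole 2-week-old seedlings that had met their treatment since sowing. The groups were NaCl 125 mM and NaCl 100 mM, with NaCl 75 mM, NaCl 50 mM, sorbitol at 250, 200, 150 and 100 mM and unsupplemented ATS medium as the other groups, each with 3 one-colour Agilent arrays. Sorbitol at 250 and 200 mM is the iso-osmolar partner of NaCl at 125 and 100 mM, which sets osmotic stress beside the same osmotic stress with sodium and chloride. The labels number the replicates without saying whether they are separate plates, so a p value measures only the spread between these samples. Roots and shoots were extracted together, and fewer cells of a type cannot be told apart from less RNA per cell. The paper reports that survival and mass per plant were lower at its higher NaCl doses. It counted a seedling as surviving if true leaves had developed. The developmental stage of the seedlings on each array was not tested here, so the doses may differ in it.

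High salt acts on a plant first as a shortage of water and later through sodium that builds up in the tissue. The hormone abscisic acid carries much of the response to water shortage and switches on dehydrin, LEA (late embryogenesis abundant) and related protective genes. The same hormone, with the transcription factor ABI3, drives the programme that fills a maturing seed with storage proteins, oil bodies and LEA proteins, a programme that is normally shut down once a seedling is established. Root hairs, the Casparian strip and the sodium and potassium carriers of the root set what enters the plant.

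The arrays lay on 7 slides (numbered 1 to 7 here), and no slide held both doses. NaCl 125 mM replicate 1 was on slide 4 and its replicates 2 and 3 on slide 5, whereas NaCl 100 mM replicate 1 was on slide 1 and its replicates 2 and 3 on slide 3. Dose and slide can therefore not be told apart within the 6 arrays. Sorbitol at 150 and 200 mM gives the one direct comparison of slide 4 with slide 6, because each dose had replicate 1 on slide 4 and replicates 2 and 3 on slide 6. The other doses that were split over slides lay on slides 1 and 2, 1 and 3 or 4 and 5. At equal sorbitol dose the slide 4 array differed from the slide 6 arrays by 0.369 to 0.434 log2 (root mean square over genes), against 0.262 to 0.340 within slide 6, and 469 genes (2.18%) were at least 0.5 log2 higher and 158 (0.735%) at least 0.5 log2 lower on slide 4 at both doses. The arrays of the 2 NaCl doses differed by 0.478 to 0.512 log2, against 0.259 to 0.293 within a dose. Of the spots, 74.0% to 80.0% were well above background on the 6 arrays. All 12 root markers and all 23 shoot markers tested were well above background on all 6 arrays. Most genes tested were, 20747 of 21509 on all 125 mM arrays and 20317 on all 100 mM arrays. As an alternative, chosen after the slide difference had been seen, slides 4, 5 and 7 were given a fixed term against slides 1, 2, 3 and 6. It is called the slide block here and is estimated from slides 4 and 6 alone. Treating slides 5 and 7 like slide 4, and slides 1, 2 and 3 like slide 6, is an assumption.

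Between the doses 10162 of 21509 genes (47.2%) passed an adjusted p of 0.01, 4058 of them higher (18.9%) and 6104 lower (28.4%) at 125 mM. Most differences were small, with a median size of 0.28 log2 among the genes called and a median of -0.04 over all genes tested. The groups of 3 arrays did not overlap for 14574 genes (67.8%), so a gene with separated groups is the usual case here. At least 2-fold differences were rarer, with 409 genes higher (1.9%) and 152 lower (0.707%) at 125 mM. With the slide block, 2513 genes were higher (11.7%) and 3102 lower (14.4%). Under normexp background correction, which adds an offset and so draws dim genes together, the 2-fold counts were 161 higher and 19 lower.

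The genes at least 2-fold higher at 125 mM partly overlapped with those high on slide 4. This was no clean split, since GSTF3 and TIP3;1 were high on slide 4 and still called higher with the slide block. Of the 409, 167 (40.8%) were among the genes that were high on slide 4 at equal sorbitol dose, and 238 were still called higher with the slide block, 201 of them by at least 2-fold. Another 7 were called lower with it. Of the 152 genes at least 2-fold lower, 2 were high and 8 low on slide 4, and 113 were still called lower with the slide block. Among the 15 largest rises, 8 were slide 4 genes, and the other 7 are described next.

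**Figure D1:**
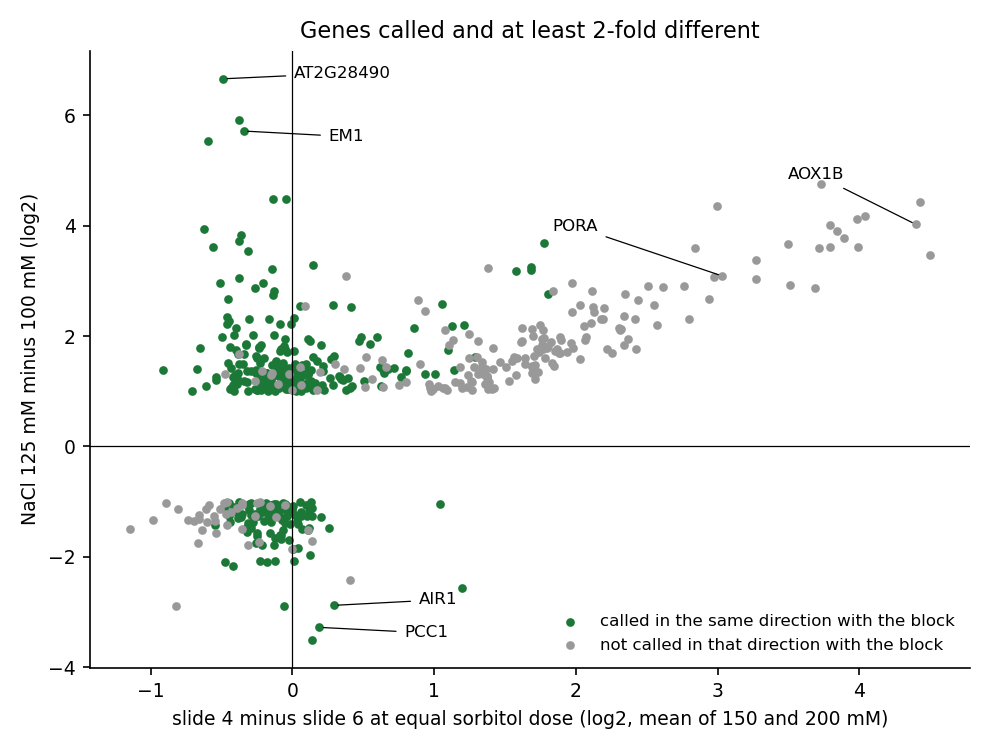
Each point is 1 of the 409 genes at least 2-fold higher or the 152 at least 2-fold lower at NaCl 125 mM. The vertical axis is the log2 difference between NaCl 125 and 100 mM and the horizontal axis is the log2 difference between slide 4 and slide 6 at equal sorbitol dose, averaged over 150 and 200 mM. Green points were called in the same direction with the slide block and grey points were not. EM1 and AT2G28490 lie at the top left, near a slide difference of 0, and AOX1B and PORA lie on the diagonal at the right.

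The 7 largest rises outside the slide 4 genes included genes of the maturing seed. AT2G28490, for which the annotation used here gives only a locus, had log2 signals of 8.71, 8.66 and 8.72 at 125 mM, against 2.01, 2.11 and 1.98 at 100 mM. EM1, a LEA protein of the embryo, had 10.89, 10.82 and 10.80 at 125 mM, against 4.89, 5.16 and 5.30 at 100 mM. OLEO2, an oleosin that coats the oil bodies of seeds, had 8.04, 8.05 and 8.09 at 125 mM, against 1.94, 2.31 and 3.33 at 100 mM. In each gene the 125 mM arrays lay close together and far above every 100 mM array. Separated groups were a condition for the 15 largest rises. AT2G28490 and OLEO2 were not well above background on any 100 mM array, where only a bound on the fold holds. Such a bound sets the mean at the brighter dose against, on each array of the dimmer dose, whichever is larger, the signal of the gene itself or the dimmest signal among probes well above background. AT2G28490 was at least 23.8-fold higher (adjusted p = 9.4e-18, limma) and OLEO2 at least 15.3-fold higher (adjusted p = 4.9e-06). EM1 was above background on 2 of the 3 arrays at 100 mM and was 52.6-fold higher at 125 mM (log2 difference 5.72, SE 0.12, adjusted p = 9.4e-18). The other probe of EM1 gave a difference of 0.38, so its probes disagree in size.

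The remaining genes of that set followed the same pattern at lower levels. ATPXG2, a peroxygenase of the caleosin family that also sits on oil bodies, had 6.38, 6.48 and 6.39 at 125 mM, against 1.93, 1.95 and 1.92 at 100 mM, at least 4.90-fold higher. ATOEP16-2, a channel protein of the outer plastid envelope, had 6.55, 6.74 and 6.81 at 125 mM, against 1.98, 3.33 and 2.98 at 100 mM, at least 5.95-fold higher. The loci AT1G65090 and AT1G54870, without a gene name here, were at least 12.6-fold and at least 11.5-fold higher. None of these genes was well above background on a 100 mM array. With normexp the differences were smaller but still called, at 1.73 for AT2G28490, 3.01 for EM1 and 1.27 for OLEO2 on the log2 scale.

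Over the list of seed maturation and storage genes, 9 of 19 members tested rose and 2 fell, with a median of 0.78 log2 beside -0.04 over all genes tested, and with the slide block 10 rose, 0 fell and the median was 1.42. The summed signal of the list was 3594 to 3774 on the 125 mM arrays, against 1008 to 1075 on the 100 mM arrays. Of its members, 12 were well above background on all 3 arrays at 125 mM, against 5 at 100 mM, and 4 were on none of the arrays at 125 mM, against 7 at 100 mM. ATS1, the seed caleosin, had 5.41, 5.60 and 5.72 at 125 mM, against 2.45, 2.17 and 2.23 at 100 mM, at least 2.73-fold higher. GEA6, the second LEA protein of the Em type, had 9.43, 9.22 and 9.30 at 125 mM, against 7.23, 7.28 and 7.39 at 100 mM, 4.05-fold higher. Both were separated by dose on every array, as groups were for 67.8% of all genes. ABI3, the regulator of the programme, was picked after its values had been seen and had 4.46, 4.48 and 4.73 at 125 mM, against 3.04, 2.51 and 2.60 at 100 mM (at least 1.35-fold higher, adjusted p = 1.4e-06). Its other probe gave a difference of 0.00. The storage protein genes did not follow as a class. SESA5, a 2S albumin, rose by 1.76 log2, whereas CRU3, a cruciferin, was on no array of either dose well above background and differed by -0.04 (adjusted p = 0.80). Whether the seedlings at 125 mM were at an earlier stage of development than those at 100 mM was not tested.

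Both seed aquaporins of the vacuole, BETA-TIP and TIP3;1, rose as well. BETA-TIP had 4.75, 5.17 and 5.09 at 125 mM, against 2.28, 2.23 and 2.07 at 100 mM, at least 1.84-fold higher. TIP3;1 had 7.57, 7.40 and 7.39 at 125 mM, against 5.20, 4.97 and 5.75 at 100 mM, a difference of 2.15 log2 that was 1.29 with the slide block.

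**Figure D2:**
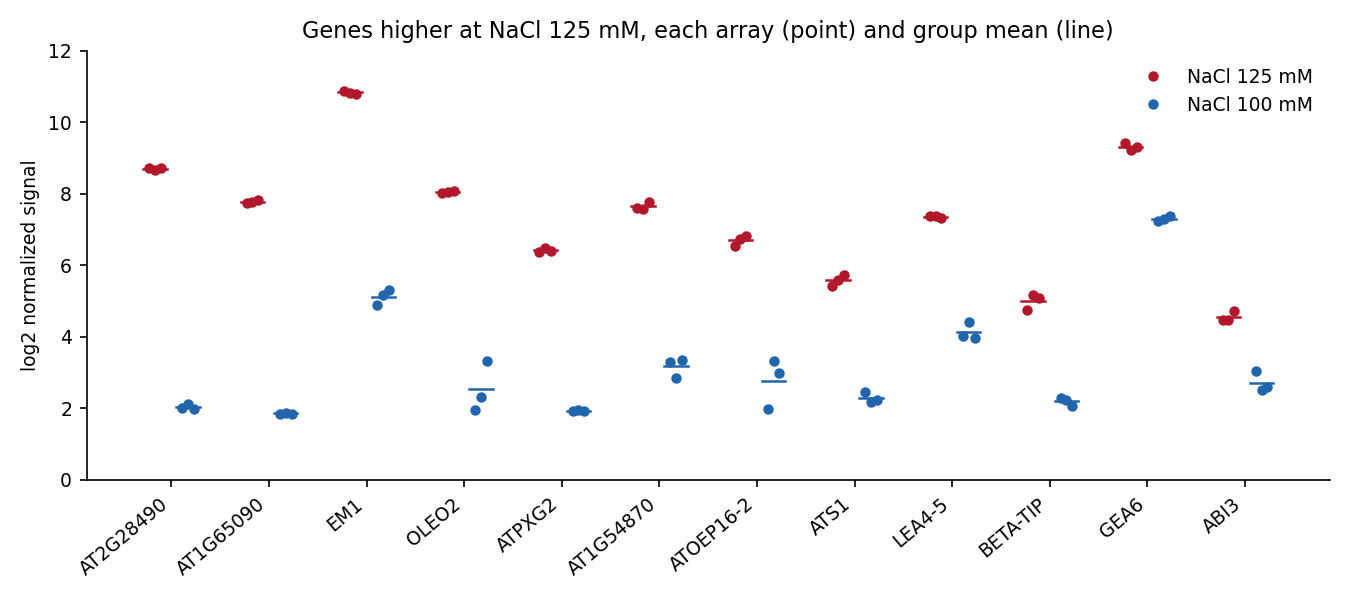
Log2 normalized signal of 12 genes on each of the 3 arrays at NaCl 125 mM (left of each pair, red) and the 3 arrays at NaCl 100 mM (right, blue), with lines at the group means. All 12 genes have every 125 mM array above every 100 mM array, and EM1 stands at 10.80 to 10.89 at 125 mM. Separated groups were a condition for choosing the largest rises, and 67.8% of all genes had them.

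Targets of osmotic stress and abscisic acid were largely higher. Of 30 genes in the list of osmotic and cold stress targets, 20 rose and 4 fell (median 0.25 log2), and with the slide block 15 rose and 3 fell (median 0.16). LEA4-5, a vegetative LEA protein, had 7.38, 7.38 and 7.33 at 125 mM, against 4.03, 4.42 and 3.97 at 100 mM, where 1 of 3 arrays was above background (difference 3.22, SE 0.22, adjusted p = 2.2e-10). LTI65, also known as RD29B and induced through abscisic acid, had 9.00, 9.05 and 9.27 at 125 mM, against 6.98, 7.23 and 7.26 at 100 mM. HVA22B, a member of a family first found as an abscisic acid response of barley, had 8.57, 8.47 and 8.33 at 125 mM, against 6.54, 6.67 and 6.59 at 100 mM. The groups of these 3 genes did not overlap, as for 67.8% of all genes. TSPO, a membrane protein made under abscisic acid, was 2.50-fold higher.

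Of 15 genes of abscisic acid synthesis and breakdown, 5 rose and 2 fell (median 0.19 log2). That is 33.3% and 13.3%, beside 18.9% and 28.4% of all genes. The largest differences were in breakdown. CYP707A1 and CYP707A2 encode 8'-hydroxylases that inactivate the hormone. CYP707A1 had 9.30, 9.26 and 9.32 at 125 mM, against 7.46, 7.47 and 7.63 at 100 mM, and CYP707A2 had 10.37, 10.29 and 10.16 at 125 mM, against 8.47, 8.48 and 8.47 at 100 mM. They were 3.42-fold (adjusted p = 1.8e-15) and 3.48-fold (adjusted p = 1.6e-11) higher.

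The iron list was divided, and 3 of its bHLH factors rose. Of 35 genes of iron uptake and storage, 13 rose and 8 fell, with a median of 0.08 log2. These shares, 37.1% and 22.9%, stand beside 18.9% and 28.4% of all genes. BHLH100, one of the group Ib factors that are made when iron is short, had 11.29, 11.37 and 11.29 at 125 mM, against 9.06, 9.04 and 9.02 at 100 mM, 4.83-fold higher. Its relatives bHLH38 and bHLH39 were 3.20-fold and 2.24-fold higher. BTS, a ubiquitin ligase that restrains the iron deficiency response, rose by 0.91 log2 by the probe used and differed by -0.06 by its other probe. Probes of close relatives can take up each other's transcripts, and this was not tested for the bHLH, glutathione S-transferase or nitrilase families.

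Anthocyanin and flavonoid genes rose in 15 of 32 cases and fell in 2 (median 0.15 log2). MYB90, a regulator of anthocyanin synthesis, had 5.31, 5.50 and 5.82 at 125 mM, against 3.73, 3.55 and 3.30 at 100 mM, where 1 of 3 arrays was above background. UF3GT, which adds a sugar to anthocyanins, was 1.95-fold higher, and TT7, flavonoid 3'-hydroxylase, was 1.84-fold higher. Among 45 glutathione S-transferases, enzymes of detoxification, 22 rose and 8 fell (median 0.16 log2), and with the slide block 20 rose and 5 fell. GSTF7 had 10.31, 10.28 and 10.28 at 125 mM, against 8.88, 8.92 and 8.90 at 100 mM, and GSTU25 was 2.19-fold higher. GSTF3 was 1.75 log2 higher, but 0.66 with the slide block, since its slide 4 arrays were 1.26 and 0.94 log2 above the slide 6 arrays at equal sorbitol dose.

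**Figure D3:**
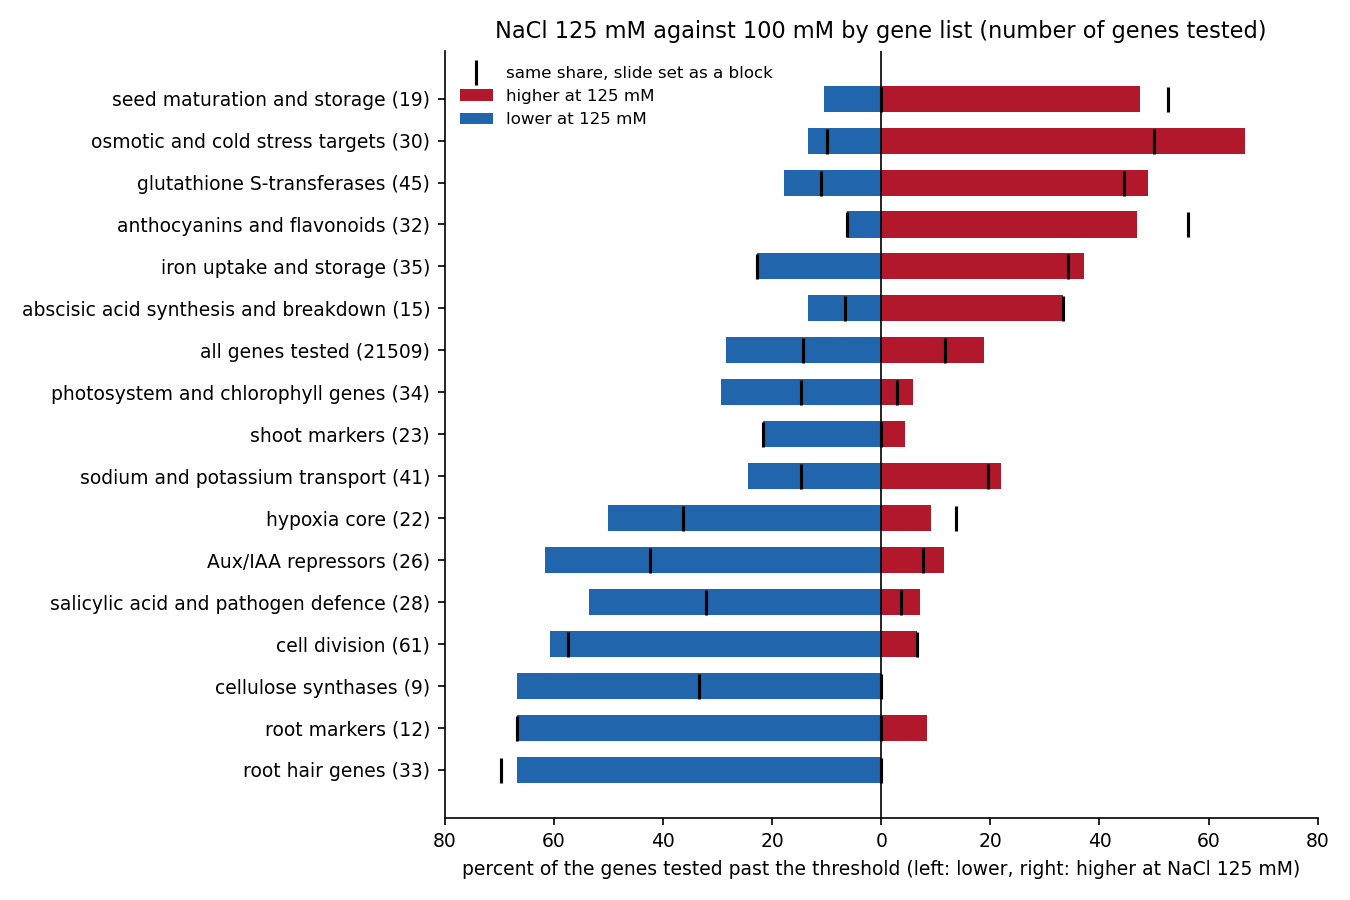
Bars give the percent of the genes tested in each list that were lower (blue, left) or higher (red, right) at NaCl 125 mM than at NaCl 100 mM, with the number of genes tested in parentheses, and black marks give the same percentages with the slide block. All 21509 genes stand at 18.9% higher and 28.4% lower, seed and osmotic lists lie to the right of that and root hair and cell division lists to the left.

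Auxin genes were of interest because the study's arrays were read for auxin synthesis. The study read its named genes on these samples, apart from its RT-qPCR reference gene AT2G28390 (SAND), so their direction on the arrays is no independent evidence. The paper also measured NIT2 and AMI1 by RT-qPCR in plants of a separate experiment, and those values were not used here. Of 14 named genes, 5 were higher (35.7%) and 2 lower (14.3%), beside 18.9% and 28.4% of all genes. NIT2, a nitrilase that can form indole-3-acetic acid, had 13.38, 13.33 and 13.35 at 125 mM, against 12.19, 12.10 and 12.06 at 100 mM, 2.35-fold higher (log2 difference 1.24, SE 0.04, adjusted p = 4.5e-15). All 3 arrays at 125 mM lay above all 3 at 100 mM, and the groups were separated in 67.8% of all genes. NIT4, which acts on cyanoalanine, was 1.89-fold higher. CYP79B2, which makes indole-3-acetaldoxime from tryptophan, rose by 0.45 log2, while its partner CYP79B3 differed by 0.11 (adjusted p = 0.13) and by 0.35 with the slide block, which was called. YUC4, of the other main route to auxin, differed by 0.24 (adjusted p = 0.011) and by 0.47 with the slide block, also called.

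Several of the study's genes were near no difference or rested on the slide or the probe. NIT1 rose by 0.15 log2 by the probe used, against -0.12 by the other, and was not called with the slide block. WES1, an enzyme that conjugates auxin to amino acids, differed by 0.68 by 1 probe and -0.41 by the other and by 0.16 with the slide block, which was not called. SOS1, the sodium exporter of the plasma membrane, differed by 0.21 and by 0.01 with the slide block, which was not called. PBP1, a partner of the PINOID kinase, fell by 0.12 log2, a call that the slide block also removed. The call of SOS1 was lost without any 1 of the 6 arrays and that of PBP1 without any 1 of 5 of them, all but NaCl 125 mM replicate 2. AO1 and AMI1, an aldehyde oxidase and an amidase placed in auxin synthesis, both differed by 0.07 and were not called. The other probe of AMI1 gave -0.24, and the mean of its probes was -0.085, which was called. NHX3, a vacuolar cation exchanger, AXR1, of the auxin response, and the reference gene AT2G28390 differed by 0.01, -0.00 and 0.06 and were not called. The second probe of AXR1 gave 0.77.

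Among 25 genes of auxin synthesis 7 rose and 3 fell (median 0.07 log2), and of 26 Aux/IAA repressors, the short-lived proteins that auxin removes, 3 rose and 16 fell (median -0.15). With the slide block 2 rose and 11 fell. IAA14, the repressor of lateral root initiation, was higher by 1.47 log2, but by 0.13 with the slide block (adjusted p = 0.35).

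Genes of pathogen defence were among those lower at 125 mM. PCC1, named for its control by pathogens and the circadian clock, had 7.44, 7.71 and 7.62 at 125 mM, against 10.83, 10.87 and 10.90 at 100 mM, 9.71-fold lower (log2 difference -3.28, SE 0.09, adjusted p = 2.4e-16). PCR1, a small membrane protein named for cadmium resistance, had 2.53, 2.10 and 3.69 at 125 mM, where no array was above background, against 6.35, 6.48 and 6.01 at 100 mM, at least 5.17-fold lower. ANK, an ankyrin repeat protein, had 3.91, 3.65 and 3.21 at 125 mM, also below background, against 6.61, 6.41 and 6.45 at 100 mM, at least 5.55-fold lower. No array at 125 mM reached the lowest at 100 mM in any of them, which was a condition for the 15 largest falls. ACD6, an ankyrin protein that promotes salicylic acid responses, had 9.14, 9.15 and 9.01 at 125 mM, against 11.11, 11.17 and 10.95 at 100 mM, 3.93-fold lower. WRKY70, a transcription factor of salicylic acid signalling, was 2.17-fold lower, and BGL2, the glucanase PR2, was 2.01-fold lower. Of 28 salicylic acid and pathogen defence genes, 15 fell and 2 rose (median -0.20 log2), and with the slide block 9 fell and 1 rose (median -0.16). PCC1 and PCR1 are not in that list. CYP71A13, a member, was higher by 1.67 log2, and by 2.01 with the slide block. It was above background on 0 arrays at 100 mM and was at least 1.19-fold higher. With normexp the differences of PCR1 and ANK shrank to -0.41 and -0.44 log2 and stayed called.

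Root genes fell as well. AIR1, named for its induction by auxin in root cultures, had 9.36, 9.40 and 9.33 at 125 mM, against 12.22, 12.24 and 12.27 at 100 mM, 7.36-fold lower (adjusted p = 2.7e-16). TIP2;3, a tonoplast aquaporin of the root, had 8.92, 8.88 and 8.99 at 125 mM, against 10.69, 10.81 and 10.80 at 100 mM, 3.58-fold lower. CASP5, a membrane protein that places the Casparian strip in the endodermis, had 5.30, 5.32 and 5.31 at 125 mM, against 6.97, 6.73 and 6.94 at 100 mM, 2.97-fold lower. The doses were separated in all of them, as for 67.8% of all genes. Of 12 root markers 8 fell and 1 rose (median -0.44 log2), and with the slide block 8 fell and 0 rose (median -0.23). Their summed signal was nevertheless 169088 to 181957 at 125 mM, against 159235 to 173035 at 100 mM. Of 23 shoot markers 5 fell (21.7%) and 1 rose (4.35%), with a median of -0.08, beside 28.4% and 18.9% of all genes. The summed signal of the shoot markers was 5005370 to 5080120 at 125 mM, against 5197420 to 5248130 at 100 mM. Their part in the root result was not tested.

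Root hair genes, which build the hairs that enlarge the surface of the root, were largely lower. Of 33, 22 fell and 0 rose (median -0.39 log2), and 23 fell with the slide block. This list overlaps the root markers, with EXPA7 in both, so the falls of the lists are not separate results. EXPA7, a root hair expansin, had 10.57, 10.56 and 10.61 at 125 mM, against 11.23, 11.18 and 11.20 at 100 mM, a difference of -0.63 log2 that was -0.36 with the slide block. PRP3, a structural wall protein of root hairs, fell by 0.76 log2, although its second probe gave 0.36, and RHS19, a root hair specific peroxidase, fell by 0.75. XTH26, a xyloglucan endotransglucosylase of growing root walls, had 6.83, 7.02 and 6.87 at 125 mM, against 8.40, 8.38 and 8.46 at 100 mM, 2.85-fold lower. Of 9 cellulose synthases 6 fell and 0 rose, though 3 with the slide block. CESA4 and IRX3, both of the secondary wall of xylem, fell by 0.68 and by 0.59 log2.

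Cell division genes fell by little but in large number. Of 61, 37 fell and 4 rose (median -0.22 log2), and 35 fell with the slide block. CYCD6;1, a D-type cyclin of the root ground tissue, had 8.47, 8.37 and 8.45 at 125 mM, against 9.17, 9.10 and 9.14 at 100 mM, and CYCA2;4, an A-type cyclin, had 8.81, 8.90 and 8.91 at 125 mM, against 9.43, 9.43 and 9.64 at 100 mM. The difference of CYCA2;4, -0.63 log2, was -0.29 with the slide block, and its slide 4 arrays were 0.34 and 0.33 log2 below the slide 6 arrays at equal sorbitol dose. CYCD2;1 went the other way and was 1.70-fold higher. CDC20.3, an activator of the anaphase-promoting complex, was 3.48 log2 higher by the probe used, -0.08 by the other and -1.02 with the slide block, and its call was lost when any 1 of the 6 arrays was left out.

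ASN1 and genes of low oxygen were also lower. ASN1, the dark-inducible asparagine synthetase, had 11.44, 11.42 and 11.43 at 125 mM, against 13.00, 13.01 and 13.10 at 100 mM, 3.04-fold lower (adjusted p = 2.1e-13). Of 37 genes of nitrogen uptake and assimilation 10 rose and 12 fell (median -0.05 log2), and with the slide block 10 rose and 8 fell (median 0.06). Without the block these are 27.0% and 32.4%, beside 18.9% and 28.4% of all genes. Of 22 core hypoxia genes, 11 fell and 2 rose (median -0.15 log2), among them SUS4, a sucrose synthase, 2.14-fold lower, and ADH1, alcohol dehydrogenase, 1.76-fold lower. Among 41 genes of sodium and potassium transport 10 fell and 9 rose, a share near that of all genes. HKT1, the carrier that withdraws sodium from the xylem sap, had 8.04, 8.12 and 8.03 at 125 mM, against 8.93, 8.99 and 8.88 at 100 mM, and SKOR, the channel that loads potassium into the xylem, fell by 0.59 log2. In HKT1 no array of 1 dose reached the other, as for 67.8% of all genes.

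Others of the 15 largest falls had uneven support. The locus AT5G60060 was 4.20-fold lower, with 6.05, 6.39 and 6.42 at 125 mM, against 8.32, 8.37 and 8.39 at 100 mM. AT3G29970 was 4.29-fold lower. SRO4, a relative of the stress regulator RCD1, was at least 3.50-fold lower. MIOX4, a myo-inositol oxygenase, and AT1G61080 were at least 1.60-fold and at least 1.46-fold lower, with 1 of 3 arrays above background at 100 mM in each. AT4G10540, AT3G11860, AT3G22250, RLP39 and GATA14 were not well above background at 125 mM and spread by at least 1 log2 at 100 mM, GATA14 with 4.65, 3.39 and 7.12. Leaving out 1 array, NaCl 100 mM replicate 3 among others, removed the call of AT4G10540, AT3G11860, RLP39 and GATA14, and the slide block removed the first 3 of these. RLP39 was on no array of either dose above background, so no fold is given. The second probe of GATA14 gave 0.39.

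The slide 4 genes need their values side by side. AOX1B, an alternative oxidase of the mitochondrion, had 7.39, 7.60 and 7.30 at NaCl 125 mM, against 3.39, 3.64 and 3.18 at 100 mM, a difference of 4.02 log2. At equal sorbitol dose its slide 4 array was 4.45 log2 (150 mM) and 4.35 log2 (200 mM) above the slide 6 arrays, and with the slide block the NaCl difference was -0.37 (adjusted p = 0.61). PORA, a protochlorophyllide oxidoreductase of greening seedlings, was 3.09 log2 higher at 125 mM by the probe used, -1.81 by another of its probes and 0.06 with the slide block. AT5G44360 had differences of 4.43 and, with the slide block, 0.01. AT1G20925, also called PIN-LIKES 1, had 7.55, 7.42 and 7.40 at 125 mM, against 3.32, 2.78 and 1.98 at 100 mM, but its second probe gave -0.76 and the slide block 1.04 (adjusted p = 0.22). AT5G47340, AT1G60830, AT4G11300, AT3G49030 and AT3G26800 were 3.90 to 4.36 log2 higher and were not called with the slide block. AT1G60830 also lost its call without NaCl 100 mM replicate 1 or 2. The rise of these genes and the slide of their arrays cannot be told apart.

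The iso-osmolar sorbitol step, from 200 to 250 mM, shares no array with the NaCl step, and the difference between the steps was tested in the same fit. The sorbitol step had 5811 genes higher (27.0%) and 4498 lower (20.9%). The NaCl step exceeded the sorbitol step in 3249 genes (15.1%) and lay under it in 5604 (26.1%). Sorbitol 250 mM was on slide 7 and sorbitol 200 mM on slides 4 and 6, so the sorbitol step also crosses slides. Of the 409 genes at least 2-fold higher in NaCl, 161 rose and 105 fell in the sorbitol step, and 209 exceeded it. Their median sorbitol step was 0.63 log2, but it was -0.11 over the 242 outside the slide 4 genes. Of the 152 at least 2-fold lower, 49 fell and 22 rose in the sorbitol step, and 102 lay under it. Both sets were chosen for a large NaCl step, and that choice by itself favours a NaCl step beyond the sorbitol step.

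EM1 and AT2G28490 stood higher at both sorbitol doses than at NaCl 100 mM. EM1 averaged 10.83 log2 at NaCl 125 mM and 5.12 at NaCl 100 mM, and it averaged 8.12 at sorbitol 250 mM and 7.67 at sorbitol 200 mM. AT2G28490 averaged 5.95 at both sorbitol doses. ATPXG2 and AT1G54870 fell in the sorbitol step by 1.72 and by 3.70 log2. SESA5 and CRU3 fell by 5.66 and by 7.92 log2, CRU3 to 2.23 at sorbitol 250 mM, against 10.15 at 200 mM. Over the seed list 2 members rose and 10 fell in the sorbitol step.

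A second set rose in the NaCl step and fell in the sorbitol step. CYP707A1 and CYP707A2 differed by -1.13 and -3.47 log2 in sorbitol, beside 1.77 and 1.80 in NaCl. BTS differed by -2.39 in sorbitol and 0.91 in NaCl. GUN4, an activator of chlorophyll synthesis, rose by 1.71 in NaCl and fell by 1.66 in sorbitol, and GLN1.3, a cytosolic glutamine synthetase, rose by 1.11 and fell by 1.74. EXPA11, an expansin, BZIP17, a membrane-held transcription factor of the unfolded protein and salt responses, CYCD2;1 and GSTF7 did the same. Sorbitol levels did not follow dose. CYP707A2 averaged 6.88, 5.32, 7.73 and 4.26 log2 at 100, 150, 200 and 250 mM sorbitol, and GLN1.3 averaged 10.76, 9.87, 11.06 and 9.32. BTS, EXPA11, BZIP17, CYCD2;1 and GSTF7 also stood higher at 200 than at 150 mM sorbitol. All 9 differences between the steps were called, with and without the slide block. Slide 7 held only the sorbitol 250 mM arrays, so the block cannot check a slide difference in the sorbitol step.

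In the other direction, PCC1, PCR1, ANK, AIR1 and BGL2 fell in NaCl and rose in the sorbitol step, by 0.50, 1.85, 0.88, 0.63 and 1.06 log2. PCC1 averaged 11.69, 14.25, 13.01 and 13.51 log2 at 100, 150, 200 and 250 mM sorbitol, and PCR1 averaged 4.41, 9.44, 8.59 and 10.44. The rise of both followed a drop from 150 to 200 mM. Over the defence list 13 rose and 1 fell in the sorbitol step, and the NaCl step lay under it in 16 of 28 genes and above it in 0. Root hair genes lay under it in 20 of 33 genes. BHLH100, TSPO and TT7 rose in both steps by amounts whose difference was not called. For BHLH100 the steps were 2.27 in NaCl and 2.50 in sorbitol, but it averaged 6.20 log2 at sorbitol 250 mM, far under the 11.31 at NaCl 125 mM. SBT5.4, a subtilase, was among the 3 most negative differences between steps, -3.88, from a NaCl step of -1.51 that was not called. The difference lost its call without any 1 of 7 arrays, among them NaCl 125 mM replicate 3 and NaCl 100 mM replicate 3.

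**Figure D4:**
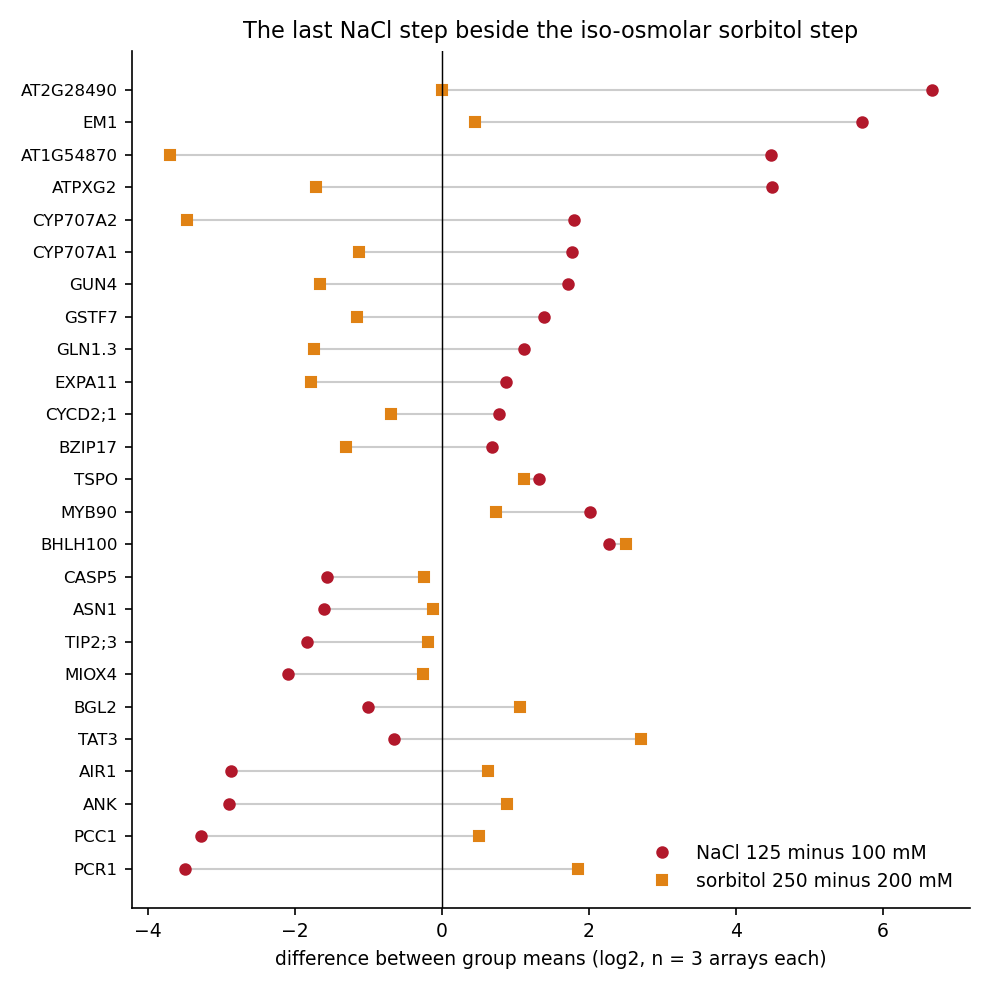
For 25 genes the red circle is the log2 difference between NaCl 125 and 100 mM and the orange square that between sorbitol 250 and 200 mM (means of 3 arrays each), joined by a line. AT2G28490 has 6.66 in NaCl and -0.00 in sorbitol, and PCC1 has -3.28 and 0.50.

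The step below, from 75 to 100 mM, uses the same 100 mM arrays, so the values are given side by side. In it 3717 genes rose (17.3%) and 4699 fell (21.8%). The last step exceeded it in 2004 genes (9.32%) and lay under it in 2413 (11.2%). With the slide block these counts were 1991 and 1692, so the balance between them turned. NaCl 75 mM lay on slides 1 and 3, as NaCl 100 mM did, so only the last step crosses slides. A difference between the steps can therefore not be told apart from a slide difference. Of the 409 genes at least 2-fold higher in the last step, 160 had also risen and 21 had fallen in the step below, and of the 152 lower ones 93 had fallen and 10 had risen. The rises outside the slide 4 genes had medians of 0.09 log2 at 75 mM against control, 0.64 from 75 to 100 mM and 1.32 from 100 to 125 mM. The falls had -0.41, -0.57 and -1.26. These genes were chosen for a last step of at least 2-fold, so the size of the last medians was fixed by that choice. The shared 100 mM arrays also tie the steps together, so the medians cannot show whether the change grew with dose.

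Of the 19 seed genes, 5 were higher than in the control at 75 mM, 6 at 100 mM and 10 at 125 mM NaCl, where 24.2%, 29.3% and 32.4% of all genes were. OLEO2 averaged 1.96, 2.28, 3.19, 2.53 and 8.06 log2 at 0, 50, 75, 100 and 125 mM NaCl, and ATPXG2 averaged 1.90, 1.91, 1.94, 1.93 and 6.42. Both stayed low up to 100 mM. GEA6 climbed by degrees, with 5.87, 6.43, 6.81, 7.30 and 9.32. PCC1 was 11.44, 13.42, 13.20, 10.87 and 7.59, higher at 50 mM than in the control and lower at 125 mM. Root hair genes fell in 28 of 33 cases in the step below and 22 in the last, and cell division genes in 38 and 37 of 61.

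Jasmonate genes and AIR1 had risen in the step below. Of 41 jasmonate genes 30 rose and 2 fell in the step below (median 0.61 log2), but 10 rose and 8 fell in the last (median -0.03). TAT3, a jasmonate-responsive tyrosine aminotransferase, rose by 2.10 and then fell by 0.66. NATA1, an acetyltransferase induced by jasmonate, rose by 5.25 and then fell by 0.98, a fall that the slide block left uncalled (adjusted p = 0.012). AIR1 averaged 9.99 at 75 mM, 12.24 at 100 mM and 9.36 at 125 mM. AT2G27315 rose by 3.65 log2 in the step below and was lower by 1.51 in the last, a call lost with the slide block and without replicate 1 or replicate 3 of either dose.

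**Figure D5:**
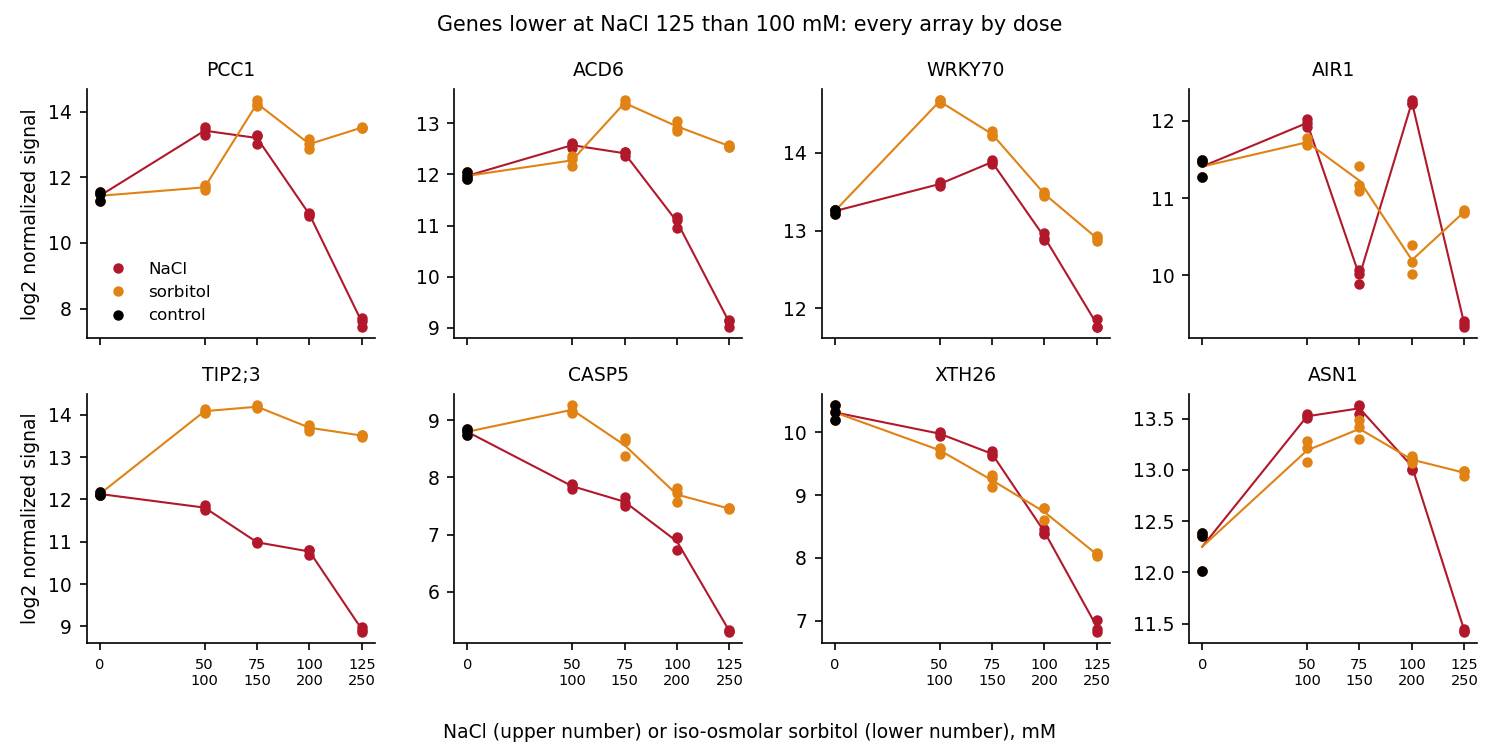
Log2 normalized signal on every array against dose for 8 genes that fell at NaCl 125 mM, with red for NaCl, orange for the iso-osmolar sorbitol dose, black for control and lines through the group means. PCC1, ACD6, TIP2;3 and ASN1 drop below every sorbitol array at NaCl 125 mM, and AIR1 is high at 100 mM only among the last 3 NaCl doses.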

How the data were processed

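The 27 arrays were scanned by the authors with Agilent Feature Extraction 10.7, named in the submitters' processing notes, and the deposited spot files give each spot's intensity (processed, median and background) and its flags, which are other values that the software set. The deposited series table holds intensity values, which matched a quantile normalization of the processed signal with a maximum deviation of 4.8e-08 percent. The genome build was not given in the sources used here.

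Control spots were removed. Processed signals were normalized by quantiles across arrays, then log2 transformed, with 530 outlier spots (0.0448%) masked. Of 36226 spots with a transcript accession, 34369 matched 1 gene in the RefSeq table, giving 25383 genes. Where a gene had several probes the brightest on average was used, and the 21509 genes detected above background throughout at least 1 group of 3 arrays were tested. The 9 group means, with no covariate, were estimated by limma 3.58.1 in R 4.3.3, with two-sided p adjusted by Benjamini-Hochberg over all genes tested and a threshold of 0.01, the study's. Summaries and figures used Python 3.11.15, numpy 2.4.6, pandas 2.3.3 and matplotlib 3.10.9. The number of arrays limits the precision. On simulated data of 21408 genes, 85% of genes changed by 0.5 log2 and 92% of those changed by 1 were found, with 0 other genes called. The simulated noise was independent between arrays and held no slide effect, whereas real arrays of a slide were correlated (0.52). The simulation can therefore not give the rate of false calls between doses that lie on different slides.

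The comparison, the 41 gene lists and the genes named were chosen with earlier results of these data known. Named genes are the 15 largest rises and falls with separated groups, up to 4 members of each list, the study's array genes, and the 3 most positive and most negative differences between steps. ABI3 was added after its values were seen. The alternatives were scaling to the 75th percentile, normexp (offset 50) on median signals, the deposited table, no filter, the mean of a gene's probes, replicate and slide blocks, arrays averaged per slide, fewer groups in the fit, a threshold of 0.05 and leaving out each array, and, chosen after seeing the data, the slide block and the removal of slide-differing genes. A promoter motif count was planned and not run. DAO1 was not analysed here.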

Additional observations from a re-analysis of the deposited data

Results flagged for a closer look

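These values are differences between the NaCl step (125 minus 100 mM) and the iso-osmolar sorbitol step (250 minus 200 mM) on the log2 scale, each flagged because limma put the difference of the steps itself past an adjusted p of 0.01. The NaCl step exceeded the sorbitol step in 3249 genes and lay under it in 5604 genes. The 2 steps share no array, but both cross slides.

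Among the seed genes and the other large rises described with them, the NaCl step exceeded the sorbitol step by 8.18 for AT1G54870, 7.88 for CRU3, 7.42 for SESA5, 6.67 for AT2G28490, 6.20 for ATPXG2, 6.12 for AT1G65090, 5.27 for EM1, 4.84 for ATS1, 4.83 for OLEO2, 3.94 for ATOEP16-2, 3.29 for BETA-TIP, 2.39 for GEA6 and 1.59 for TIP3;1. The NaCl step of CRU3 was itself not called, and its difference comes from the sorbitol 200 mM arrays.

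Among genes of abscisic acid and osmotic stress the excess was 5.27 for CYP707A2, 2.90 for CYP707A1, 3.11 for LEA4-5, 1.65 for HVA22B and 0.68 for LTI65. It was 3.29 for BTS, 0.85 for bHLH39 and 0.80 for bHLH38 among iron regulators. MYB90 had 1.28, GSTF7 2.55, GSTU25 0.84, GUN4 3.38, GLN1.3 2.86, EXPA11 2.64, BZIP17 1.99, CYCD2;1 1.46 and AT3G29970 1.61. The auxin and nitrilase genes had 0.79 for NIT4, 0.73 for NIT2 and 0.33 for CYP79B3.

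The NaCl step lay under the sorbitol step with -5.35 for PCR1, -3.88 for SBT5.4, -3.78 for PCC1, -3.78 for ANK, -3.51 for AIR1, -3.37 for TAT3, -2.90 for AT1G61080, -2.12 for NATA1 and -2.07 for BGL2. Smaller differences were -1.84 for MIOX4, -1.67 for AT5G60060, -1.65 for TIP2;3, -1.59 for ACD6, -1.47 for ASN1, -1.32 for CASP5 and -1.04 for PRP3. Root, transport, wall and division genes had -0.84 for XTH26, -0.71 for RHS19, -0.64 for HKT1, -0.60 for IRX3, -0.48 for EXPA7, -0.36 for CESA4, -0.28 for SKOR, -0.55 for CYCD6;1 and -0.54 for CYCA2;4. The others were -0.55 for WRKY70, -0.47 for SRO4, -0.35 for ADH1, -0.26 for UF3GT and -0.23 for AO1.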

How the results depend on the processing

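No slide held both doses. Of 10162 genes called (4058 higher, 6104 lower), 5445 (2113 and 3332) were called with arrays of a group on 1 slide averaged and 5615 (2513 and 3102) with the slide block. The 2-fold rises numbered 287 with the slide block, 256 with averaged arrays, 161 with normexp and 242 without slide-differing genes, and the 2-fold falls 19 with normexp and 91 with the slide block. Against the sorbitol step, 5615 genes differed with slide as a random block (3282 negative) and 4237 with averaged arrays (2019 positive, 2218 negative). Against the step below, 1206 differed with averaged arrays (577 and 629) and 7303 at a threshold of 0.05 (3308 and 3995). The causes were not tested beyond these settings.

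Leaving out 1 array gave 8720 to 9033 calls, 3386 to 3657 higher and 5279 to 5459 lower, with 368 to 391 2-fold rises and 145 to 164 2-fold falls. Against the step below it gave 2835 to 4132 calls (1281 to 1943 positive, 1554 to 2220 negative), the lowest without NaCl 100 mM replicate 3, and 1599 negative without NaCl 100 mM replicate 1. Against the sorbitol step it gave 7997 to 8836 (3017 to 3323 positive, 4944 to 5536 negative). Without NaCl 100 mM replicate 1 the difference of OLEO2 from the step below was not called.

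Same-numbered arrays of the doses did not deviate together (correlations 0.04, -0.05 and 0.01). These few values, between arrays on different slides, cannot decide whether the numbers pair the samples. The replicate block gave 10696 calls. Signs changed for AOX1B (-0.37), CDC20.3 (-1.02), AMI1 (-0.065), AT2G28390 (-0.089) and CRU3 (0.020) with the slide block, for CRU3 with normexp (0.012), and for AXR1 (0.39) and AMI1 (-0.085) with the mean of probes. Leaving out 1 array gave AXR1 -0.068 to 0.11, NHX3 -0.012 to 0.043 and CRU3 -0.10 to 0.017. Except for CDC20.3, AOX1B and the mean of probes of AXR1 and AMI1, none of these was called in any setting named here. The rises of EM1, AT2G28490, ATPXG2 and GEA6 and the falls of PCC1, PCR1, ANK, AIR1, ACD6, TIP2;3 and CASP5 kept their direction and call in every setting run.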
